A study of Mus musculus with 8 samples.

Results

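The genes described here are 9 genes that mark Cajal-Retzius cells, the earliest-born neurons of the cerebral cortex: Reln, Trp73, Lhx1, Lhx5, Lhx9, Ebf2, Ebf3, Calb2 and Cacna2d2. They were chosen by name, and all 9 were present among the 22834 genes shared by the count tables of the 2 stages, the E12.5 table after its Ensembl identifiers were matched to symbols. RNA was sequenced from dissected cortices of Mboat7+/- and Mboat7-/- mouse embryos at E11.5 and at E12.5, each stage being represented by 2 embryos of either genotype (8 cortices). Mboat7 encodes LPLAT11, a lysophospholipid acyltransferase that places arachidonic acid on phosphatidylinositol. The deletion was present in the whole embryo, and the controls also carried it on 1 allele, so no wild-type cortex was compared. No label gave the sex of the embryos. The E11.5 and E12.5 libraries came from different sequencing providers and were counted with different annotations, so that stage and provider cannot be told apart. Levels of the 2 stages are only set side by side, while genotype differences were also fitted over both stages.

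Cajal-Retzius cells arise at the rims of the cortical sheet, in the cortical hem, the septum, the ventral pallium near the antihem and the thalamic eminence, and spread tangentially under the pia to cover the cortex. They secrete Reelin, the large extracellular glycoprotein encoded by Reln, which binds the receptors VLDLR and ApoER2 on radial glia and migrating neurons, leads to phosphorylation of the adaptor Dab1 and guides the layering of the cortex. Cells of the hem and septum express Trp73, a transcription factor of the p53 family, whereas calretinin, encoded by Calb2, and the LIM-homeodomain factors Lhx1, Lhx5 and Lhx9 and the helix-loop-helix factors Ebf2 and Ebf3 are found in subsets that differ by origin. Several of these genes are also used elsewhere in the forebrain, in particular in the diencephalon. In whole cortices, fewer cells of a type and less RNA per cell cannot be told apart.

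The upstream sequences of Reln and Trp73 are shown because these are the members that mark Cajal-Retzius cells most directly in this tissue and those whose level was higher at E12.5 than at E11.5 in all cortices. RefSeq (assembly GRCm38.p6) gave 7 upstream windows of 250 bases for 6 of the 9 genes, with a single window for Reln and a window for each of 2 starts of Trp73, which lie 42702 bases apart. Capitals mark GGCGGG, the core of a GC box, read on either strand as GGCGGG or CCCGCC.
Reln, chr5:22344706-22344955, minus strand: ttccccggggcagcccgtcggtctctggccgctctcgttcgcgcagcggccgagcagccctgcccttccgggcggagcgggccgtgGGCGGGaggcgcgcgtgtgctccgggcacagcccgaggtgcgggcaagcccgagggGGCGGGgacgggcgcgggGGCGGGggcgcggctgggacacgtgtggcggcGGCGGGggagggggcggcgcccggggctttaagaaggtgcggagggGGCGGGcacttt
Trp73 upstream start, chr4:154139876-154140125, minus strand: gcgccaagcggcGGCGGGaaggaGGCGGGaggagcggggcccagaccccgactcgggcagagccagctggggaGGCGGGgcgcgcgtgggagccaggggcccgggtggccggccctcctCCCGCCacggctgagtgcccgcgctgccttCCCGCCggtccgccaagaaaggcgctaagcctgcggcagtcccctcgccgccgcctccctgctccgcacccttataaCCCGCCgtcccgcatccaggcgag
Trp73 internal start, chr4:154097174-154097423, minus strand: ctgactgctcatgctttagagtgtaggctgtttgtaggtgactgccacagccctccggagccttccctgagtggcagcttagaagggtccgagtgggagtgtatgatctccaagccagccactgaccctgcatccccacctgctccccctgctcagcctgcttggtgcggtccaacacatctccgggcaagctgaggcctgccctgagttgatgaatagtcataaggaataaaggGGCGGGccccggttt
The Reln window held 5 such matches with a GC content of 80.0%, and the window at the upstream Trp73 start held 6 with 77.2%. The window at the internal Trp73 start held 1 match with 58.4% GC. Over 32851 RefSeq windows of the same length the median GC content was 52.4% and 32.5% held GGCGGG on either strand, against 6 of the 7 windows of the members. The homeodomain core TAATTA, which is its own reverse complement, was in 0 of the 7 and in 4.84% of all windows, and CCCNNGGG, the palindromic core bound by EBF factors, was in 2 of the 7 and in 11.8% of all windows. A match describes the letters of a window only.

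Between 21843330 and 28189771 reads were counted per E11.5 cortex and between 20799311 and 23330432 per E12.5 cortex, and a count of 3 corresponded to between 0.106 and 0.144 CPM (counts scaled to a common library size), so that every member lay far above this floor in every cortex. At E11.5, reads on Mboat7 numbered 700 and 876 in Mboat7+/- and 1103 and 860 in libraries labelled Mboat7-/-, and at E12.5 they numbered 739 and 782 against 730 and 729. Mboat7 was thus no lower under the Mboat7-/- label at E11.5, and where the deletion lies in the transcript was not given in the sources used here. Xist was counted 17875 times in E11.5 Mboat7+/- replicate 1 and at most 2 times in every other cortex, so that sex differs between the cortices of that group. The 14935 genes at E11.5 and 16326 genes at E12.5 that passed a filter on low counts entered edgeR's quasi-likelihood test with adjustment over all of them (false discovery rate, FDR). All 9 members passed the filter at both stages.

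Per kilobase of transcript, the order of the members differed between the stages. At E11.5, Lhx5 had the highest level with 22.6 ± 2.82 CPM per kilobase (SD, n = 4 cortices of both genotypes), and its lowest cortex, 20.1, was above the highest cortex of Ebf3, 12.3. Ebf3 followed, then Cacna2d2 with a mean of 9.28, Calb2 with 8.51, Lhx9 with 7.52, Ebf2 with 4.41, Trp73 with 3.98, Reln with 3.03 CPM per kilobase and Lhx1 with cortices between 2.67 and 3.33. Each neighbouring pair below Lhx5 in this order overlapped in range. At E12.5, Calb2 was highest with 12.1 ± 1.57 CPM per kilobase (SD, n = 4), followed by Reln with 10.1 ± 1.77, Lhx9 with 8.57, Trp73 with 7.58, Cacna2d2 with 6.48, Lhx5 with 4.74, Ebf3 with 4.46, Ebf2 with 3.69 and Lhx1 with 1.62. In that order Cacna2d2 and Lhx5, Ebf3 and Ebf2, and Ebf2 and Lhx1 did not overlap, while the other neighbours did. The lengths were those of the longest principal transcript, 11699 bases for Reln and 5042 for Trp73, and transcripts from the internal Trp73 start are shorter.

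**Figure D1:**
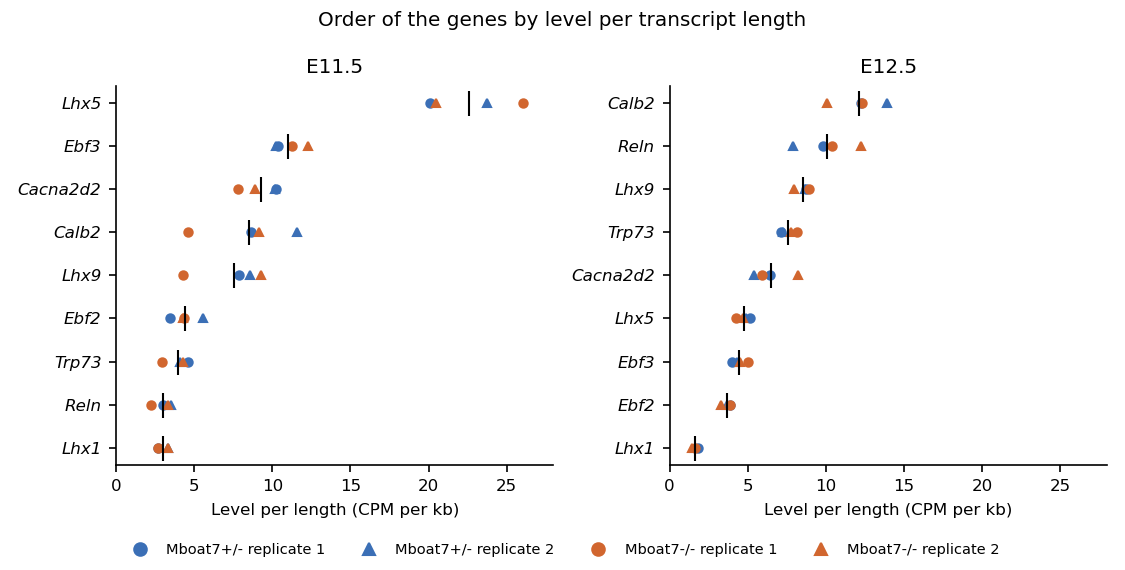
Level of each gene in CPM per kilobase of transcript (x axis) at E11.5 (left) and E12.5 (right), with the genes in order of their mean. Points are single cortices (blue Mboat7+/-, orange Mboat7-/-, circle replicate 1, triangle replicate 2) and the black tick is the mean of 4 cortices. Lhx5 stands apart at E11.5 with 20.1 to 26.1 CPM per kilobase, and lies between 4.27 and 5.14 at E12.5, where Calb2 and Reln lead.

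Set side by side, 5 members had ranges at the 2 stages that did not meet. Reln lay between 26.3 and 41.5 CPM at E11.5 and between 92.6 and 143 CPM at E12.5, a ratio of the means of 3.33. Trp73 lay between 14.8 and 23.1 CPM and between 36.1 and 41.1 CPM, a ratio of 1.90. The opposite order was found for Lhx5 (54.1 to 70.1 CPM, then at most 13.8 CPM, ratio 0.210), Ebf3 (49.4 to 59.5 CPM, then 19.4 to 24.2 CPM, ratio 0.404) and Lhx1 (10.3 to 12.8 CPM, then 5.47 to 6.96 CPM, ratio 0.542). Lhx9, Ebf2, Calb2 and Cacna2d2 overlapped between the stages. Lhx1, Lhx5 and Lhx9 are also expressed in the diencephalon and thalamic eminence. The 15 marker genes of that list summed to between 387 and 458 CPM in the 4 cortices at E11.5. At E12.5 they summed to between 74.5 and 83.4 CPM. Other lists were lower at E12.5 as well. The sum over 12 cortical hem genes lay between 401 and 449 CPM and between 240 and 267 CPM. Septum and antihem genes summed to 624 to 714 CPM, then 384 to 445 CPM, and mesenchyme genes to 1660 to 2110 CPM, then 551 to 740 CPM. Ventral telencephalon genes (408 to 541 CPM, then 652 to 732 CPM) and genes of neurons in general (1630 to 2700 CPM, then 3810 to 4160 CPM) were higher at E12.5. The part of dissection, provider or annotation in these values was not tested.

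**Figure D2:**
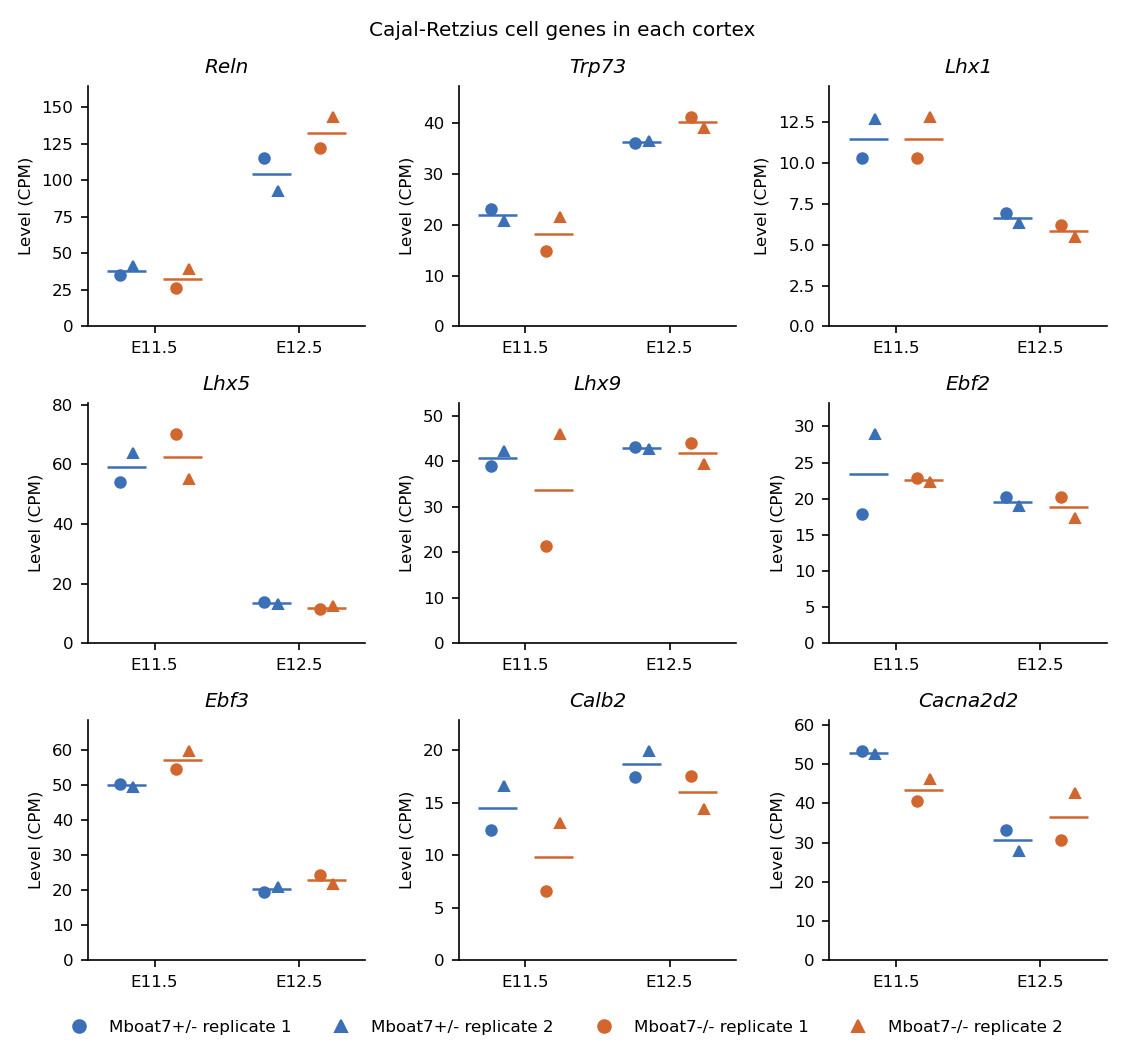
Level in CPM (y axis, from 0) of the 9 genes in every cortex at E11.5 and E12.5 (x axis). Blue points are Mboat7+/- and orange points Mboat7-/- cortices, circles replicate 1 and triangles replicate 2, and lines are the means of 2 cortices. The ranges of the stages do not meet for Reln, Trp73, Lhx1, Lhx5 and Ebf3. E11.5 Mboat7-/- replicate 1 lies below the other cortices of its stage for Reln, Trp73, Lhx9, Calb2 and Cacna2d2.

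No member passed the test between genotypes at either stage. At an FDR under 0.05 in edgeR's quasi-likelihood test, 0 of the 9 were called at E11.5, where 0.0% of all genes tested were, and 0 of the 9 at E12.5, where 0.0184% of all genes were, so that no member met the further criterion of a 2-fold change either. At an unadjusted p under 0.05, 1 member was found at E11.5 (Cacna2d2, lower in Mboat7-/-) against 14.1% of all genes, and 1 at E12.5 (Reln, higher in Mboat7-/-) against 4.23%. The genotypes did not overlap in 2 of the 9 members at E11.5 (Ebf3 higher and Cacna2d2 lower) against 46.3% of all genes, and in 5 of the 9 at E12.5 (Reln, Trp73 and Ebf3 higher, Lhx1 and Lhx5 lower) against 32.0%. The median log2 fold change of the members was -0.24 at E11.5 with 7 of 9 below 0, beside a median of -0.005 over all genes, and -0.04 at E12.5 with 5 of 9 below 0, beside 0.005. DESeq2 and edgeR's exact test also called 0 of the 9 at each stage, DESeq2 giving no adjusted p for 6 of them at E11.5.

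Reln (chr5:21884454-22344705, GRCm38.p6), the gene of the secreted signal, was measured at 34.9 and 41.5 CPM in the E11.5 Mboat7+/- cortices and at 26.3 and 39.2 CPM in the Mboat7-/- cortices. The Mboat7-/- replicate 1 was the lowest of the 4 and the other Mboat7-/- cortex lay between the controls, so that the groups overlapped. This gave a log2 fold change of -0.24 with a standard error of 0.18 and an edgeR adjusted p of 0.584. At E12.5, Reln was at 115 and 92.6 CPM in Mboat7+/- and at 122 and 143 CPM in Mboat7-/- cortices. Both Mboat7-/- cortices were above both controls, with means of 132 ± 14.9 against 104 ± 15.7 CPM (SD, n = 2 each). On the log2 scale the difference was 0.35 (standard error 0.12), with an unadjusted edgeR p of 0.0140 and an adjusted p of 0.954.

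Reln changed its call with the cortices and the design used. Without E11.5 Mboat7-/- replicate 2, the edgeR log2 fold change of Reln at that stage was -0.54 (adjusted p = 0.0249), and without Mboat7-/- replicate 1 it was 0.04 (adjusted p = 0.940). Without replicate 2, which leaves replicate 1 alone against both controls, 4 of the 9 members were called, Reln, Lhx9, Calb2 and Cacna2d2, against 7.72% of all genes tested. At E12.5 Reln was called without Mboat7-/- replicate 1 (log2 fold change 0.46, edgeR adjusted p = 0.0279), with 1.89% of all genes called in that fit. It was not called without any other E12.5 cortex, at 0.20 without Mboat7+/- replicate 2, 0.23 without Mboat7-/- replicate 2 and 0.51 without Mboat7+/- replicate 1 (edgeR adjusted p = 0.148). With the replicate number (the batch of the labels) as a block, 0 of the 9 members were called at E11.5 against 3.38% of all genes and 0 of the 9 at E12.5 against 0.196%. With the block and a trend of each library with transcript length and GC content removed, an alternative chosen after seeing the data, Reln (log2 fold change -0.42, edgeR adjusted p = 0.0317) and Cacna2d2 (-0.35, adjusted p = 0.0383) were called lower at E11.5, 2 of the 9 members against 2.57% of all genes.

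Trp73 (chr4:154056249-154139875) was at 23.1 and 20.8 CPM in E11.5 Mboat7+/- cortices and at 14.8 and 21.6 CPM in Mboat7-/- cortices. Replicate 1 of Mboat7-/- was the lowest again, and replicate 2 lay between the controls. The difference between genotypes was -0.28 on the log2 scale (standard error 0.19, edgeR adjusted p = 0.529). At E12.5 Trp73 was at 36.1 and 36.5 CPM in Mboat7+/- and at 41.1 and 39.1 CPM in Mboat7-/- cortices, without overlap and at 0.14 on the log2 scale (standard error 0.10, edgeR adjusted p = 0.954). The E11.5 value of Trp73 was -0.02 without Mboat7-/- replicate 1 and -0.57 without replicate 2 (edgeR adjusted p = 0.0576).

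Among the LIM-homeodomain genes, Lhx5 (chr5:120431886-120441457) was at 54.1 and 63.8 CPM in E11.5 Mboat7+/- and at 70.1 and 55.1 CPM in Mboat7-/- cortices, the only member whose highest value lay in Mboat7-/- replicate 1. Lhx9 (chr1:138825186-138848839) was at 39.0 and 42.2 CPM in Mboat7+/- and at 21.3 and 45.9 CPM in Mboat7-/- cortices, which held both the lowest and the highest value. Lhx1 (chr11:84517975-84525534) was at 10.3 and 12.7 CPM in Mboat7+/- and at 10.3 and 12.8 CPM in Mboat7-/- cortices. The 3 log2 fold changes were 0.08, -0.29 and -0.02 in that order, with standard errors of 0.13, 0.28 and 0.20, and in each the replicates of at least 1 genotype spread further than the means of the genotypes lay apart. At E12.5 Lhx5 had 288 and 283 reads in Mboat7+/- and 265 and 285 reads in Mboat7-/- cortices (13.8 and 13.1 against at most 12.6 CPM), and Lhx1 was at 6.96 and 6.34 CPM and 6.20 and 5.47 CPM, both lower in Mboat7-/- without overlap. Their log2 fold changes were -0.16 (standard error 0.15) and -0.19 (standard error 0.20), each with an edgeR adjusted p of 0.954. Lhx9 was at 43.2 and 42.7 CPM in Mboat7+/- and at 44.0 and 39.4 CPM in Mboat7-/- cortices, a log2 fold change of -0.04 (standard error 0.10).

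The EBF genes encode factors of neuronal differentiation. Ebf3 (chr7:137193671-137322805) was the only member with fold changes above 0 and no overlap at both stages: 50.1 and 49.4 CPM in Mboat7+/- and 54.6 and 59.5 CPM in Mboat7-/- cortices at E11.5, and 19.4 and 20.9 CPM against 24.2 and 21.8 CPM at E12.5. On the log2 scale the difference was 0.20 (standard error 0.09, edgeR adjusted p = 0.379) at E11.5 and 0.19 (standard error 0.12, adjusted p = 0.954) at E12.5. With the length and GC trend alone removed these differences were 0.10 (edgeR adjusted p = 0.789) and 0.15 (adjusted p = 0.959). Ebf2 (chr14:67233292-67430952) was at 17.9 and 28.9 CPM in Mboat7+/- and at 22.8 and 22.3 CPM in Mboat7-/- cortices at E11.5, where the controls lay on either side of both Mboat7-/- values. At E12.5 it was at 20.3 and 19.0 CPM and at 20.3 and 17.3 CPM, and its log2 fold changes were -0.07 (standard error 0.20) and -0.06 (standard error 0.13).

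Calb2 (chr8:110142526-110168212), which encodes the calcium-binding protein calretinin, had the largest fold change of the 9 members at E11.5. It was at 12.4 and 16.6 CPM in Mboat7+/- and at 6.61 and 13.1 CPM in Mboat7-/- cortices, so that replicate 2 of Mboat7-/- lay between the controls. On the log2 scale this was -0.60 (standard error 0.29), with an unadjusted edgeR p of 0.0713 and an adjusted p of 0.402, and it was -0.16 without Mboat7-/- replicate 1 and -1.14 without replicate 2 (adjusted p = 0.00696). At E12.5 Calb2 was at 17.5 and 19.9 CPM in Mboat7+/- and at 17.6 and 14.4 CPM in Mboat7-/- cortices, or -0.22 on the log2 scale (standard error 0.15, edgeR adjusted p = 0.954).

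Cacna2d2 (chr9:107399733-107529346), which encodes an auxiliary alpha2delta subunit of voltage-gated calcium channels, was at 53.2 and 52.6 CPM in E11.5 Mboat7+/- and at 40.5 and 46.1 CPM in Mboat7-/- cortices. Both Mboat7-/- cortices were lower, with means of 43.3 ± 3.97 against 52.9 ± 0.471 CPM (SD, n = 2 each). This difference of -0.29 on the log2 scale (standard error 0.10) had an unadjusted edgeR p of 0.0166 and an adjusted p of 0.258. At E12.5 Cacna2d2 was at 33.3 and 27.9 CPM in Mboat7+/- and at 30.6 and 42.5 CPM in Mboat7-/- cortices, which overlapped, and differed by 0.26 on the log2 scale (standard error 0.15, edgeR adjusted p = 0.954). Without Mboat7-/- replicate 2 this E12.5 value was 0.002, and without Mboat7-/- replicate 1 it was 0.47 (edgeR adjusted p = 0.0563).

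**Figure D3:**
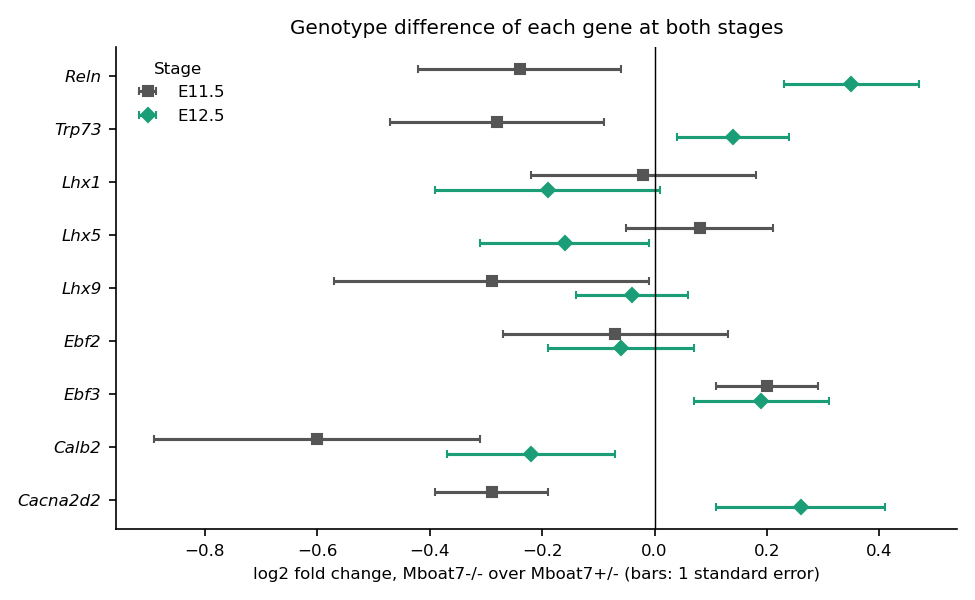
Fitted log2 fold change of Mboat7-/- over Mboat7+/- (x axis) for each gene (y axis) at E11.5 (squares) and E12.5 (diamonds), with bars of 1 standard error. Reln, Trp73 and Cacna2d2 lie below 0 at E11.5 and above 0 at E12.5, Ebf3 lies above 0 at both stages with 0.20 and 0.19, and Calb2 lies below 0 at both with -0.60 and -0.22.

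Over both stages together, with 4 cortices per genotype and stage as a term, 0 of the 9 members passed an FDR under 0.05 in edgeR's quasi-likelihood test, as did 0.0% of all genes, and 2 of the 9 had an unadjusted p under 0.05, against 12.4% of all genes. These were Ebf3, with 0.20 on the log2 scale (standard error 0.07, unadjusted p of 0.0164, adjusted p = 0.333), and Calb2, with -0.39 (standard error 0.18, unadjusted p of 0.0428, adjusted p = 0.393). Reln differed by 0.10 (standard error 0.14) in that fit. Whether the genotype difference itself differed between the stages was tested as an interaction. Stage, provider and annotation are 1 term in that fit, so an interaction cannot be assigned to stage alone. In that test 0 of the 9 members passed an FDR under 0.05, with 0.0% of all genes, and 2 of the 9 had an unadjusted p under 0.05, against 5.45% of all genes. Reln had an interaction of 0.58 on the log2 scale (standard error 0.23, unadjusted edgeR p of 0.0285). Cacna2d2 had one of 0.55 (standard error 0.21, unadjusted edgeR p of 0.0203), and both had an adjusted p of 0.888. Neither kept an unadjusted p under 0.05 without E11.5 Mboat7-/- replicate 1, without E12.5 Mboat7+/- replicate 2 or without E12.5 Mboat7-/- replicate 2. Without E11.5 Mboat7-/- replicate 2, 1 of the 9 members, Lhx9, passed in the interaction fit, against 0.574% of all genes.

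At E11.5 the Mboat7-/- cortices differed from each other in several members and in genes of neurons. Mboat7-/- replicate 1 held the lowest value of 6 of the 9 members at that stage and the highest of 1. A list of 15 genes of neurons in general, none of them a member, summed to 2370 and 2700 CPM in the Mboat7+/- cortices and to 1630 and 2500 CPM in the Mboat7-/- cortices, with replicate 1 again the lowest. All 15 had a fold change below 0, with a median log2 fold change of -0.26, beside -0.24 for the members. An unadjusted edgeR p under 0.05 was found for 3, beside 14.1% of all genes, and none passed the FDR. Snap25, a synaptic vesicle fusion protein, had the smallest p of that list (log2 fold change -0.82, standard error 0.19, edgeR adjusted p = 0.180, and 0.0199 with the replicate block). The block called 3 of the 15, beside 3.38% of all genes. At E12.5 the same list summed to 4130 and 3810 CPM in Mboat7+/- and to 3970 and 4160 CPM in Mboat7-/- cortices, and 13 of the 15 had a fold change above 0.

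Expressed per 1000 CPM of the neuron list, Reln was at 14.7 and 15.4 in the E11.5 Mboat7+/- cortices and at 16.2 and 15.7 in the Mboat7-/- cortices. On this scale replicate 1 of Mboat7-/- was the highest rather than the lowest, and the 4 values lay closer together than the CPM values did. Trp73 was at 9.76 and 7.71 against 9.09 and 8.62 and Cacna2d2 at 22.5 and 19.5 against 24.9 and 18.4, both with overlap. Calb2 was at 5.24 and 6.16 against 4.07 and 5.22, so that both Mboat7-/- values lay below both controls. Lhx9 remained lowest in replicate 1, at 13.1 against 18.3 in the other Mboat7-/- cortex and 16.5 and 15.7 in the controls. Lhx1, Lhx5, Ebf2 and Ebf3 also stood highest in replicate 1, as Reln and Cacna2d2 did. Lhx5 was at 43.1 there against 22.0 to 23.7 in the other cortices, and Ebf3 at 33.6 against 18.3 to 23.8. Lhx1 was at 4.37 and 4.72 in Mboat7+/- and at 6.31 and 5.11 in Mboat7-/- cortices. For Reln, Lhx1 and Ebf3 both Mboat7-/- values lay above both controls, whereas Lhx5, Lhx9 and Ebf2 overlapped. At E12.5 the sums of the neuron list were nearly equal. Reln was there at 27.8 and 24.3 per 1000 CPM in Mboat7+/- and at 30.7 and 34.3 in Mboat7-/- cortices, again without overlap. Trp73 (8.74 and 9.57 against 10.4 and 9.41) and Ebf3 (4.71 and 5.47 against 6.1 and 5.23) overlapped on this scale, unlike in CPM. Lhx1 and Lhx5 stayed lower in Mboat7-/- without overlap, and Lhx9, Ebf2, Calb2 and Cacna2d2 overlapped. These ratios are a description and were not tested.

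**Figure D4:**
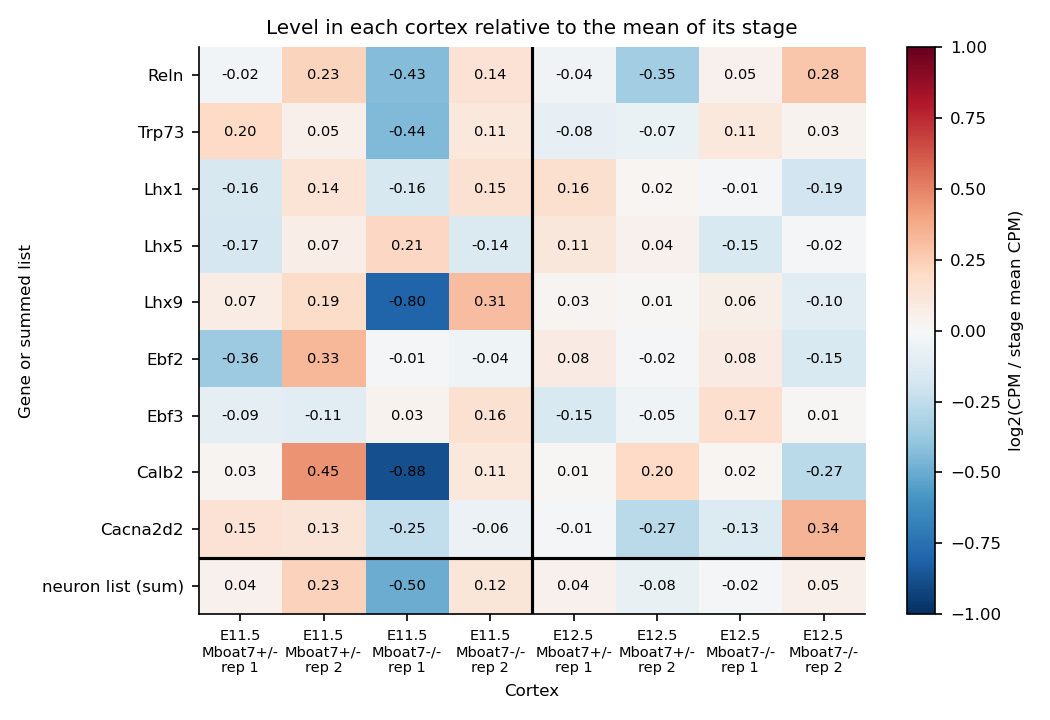
Level of each gene and of the summed list of 15 neuron genes (rows) in each of the 8 cortices (columns), as log2 of the CPM over the mean CPM of the 4 cortices of the same stage. Blue is below and red above the mean of the stage, and the vertical line separates the stages. In E11.5 Mboat7-/- replicate 1 the neuron list is at -0.50, Reln at -0.43, Trp73 at -0.44, Lhx9 at -0.80 and Calb2 at -0.88, while Lhx5 is at 0.21. In E12.5 Mboat7-/- replicate 2 Reln is at 0.28 and the neuron list at 0.05.

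The genes whose levels followed Reln most closely over the 8 cortices were found among 10603 genes by the Pearson correlation of log2 CPM centred on the mean of each stage. They included Gpm6a (r = 0.992), Gpm6b (0.987), Cadps (0.984) and Frmd5 (0.983). Gpm6a and Gpm6b encode membrane proteolipids of neurons and glia, and Cadps a factor of vesicle exocytosis. Gpm6a was at 64.5 and 76.8 CPM in E11.5 Mboat7+/- and at 52.2 and 73.8 CPM in Mboat7-/- cortices, and at 257 and 221 CPM against 262 and 305 CPM at E12.5. Among the members, Cacna2d2 (r = 0.81), Trp73 (0.71) and Lhx9 (0.66) followed Reln more closely than Calb2 (0.49), Lhx1 (0.24), Ebf2 (0.13) and Ebf3 (0.09), and Lhx5 had a negative value of -0.49. The points share libraries and depth, and only 4 of them come from each stage, so these values are descriptions.

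Reelin signalling was measured by 25 genes, the proteases Furin, Adamts2 and Adamts3 among them, all tested at both stages, and none passed an FDR under 0.05. At E11.5, 3 were higher and 2 lower in Mboat7-/- at an unadjusted p under 0.05, beside 14.1% of all genes in either direction. At E12.5, 2 were higher and 0 lower, beside 4.23% of all genes. The medians of the list were 0.06 and 0.05 on the log2 scale. Vldlr, a Reelin receptor, was at 18.7 and 21.9 CPM in Mboat7+/- and 22.5 and 26.3 CPM in Mboat7-/- cortices at E11.5, and at 25.1 and 19.9 CPM against 28.2 and 30.2 CPM at E12.5. It was higher without overlap at both stages, and over both stages its log2 fold change was 0.32 (standard error 0.10, unadjusted edgeR p of 0.00626, adjusted p = 0.308). Lrp8, which encodes the receptor ApoER2, overlapped at both stages, with log2 fold changes of -0.19 and 0.12. Dab1, the adaptor that both receptors engage, was at 55.1 and 60.8 CPM against 39.0 and 55.0 CPM at E11.5 and at 90.5 and 87.5 CPM against 95.0 and 104 CPM at E12.5, lower and then higher without overlap. Its interaction of stage and genotype was 0.47 on the log2 scale (standard error 0.18, unadjusted edgeR p of 0.0255, adjusted p = 0.888). Of the kinases downstream, Fyn differed by -0.21 on the log2 scale (standard error 0.07) and Gsk3b by 0.17 (standard error 0.06) at E11.5, and Pik3r1, a regulatory subunit of phosphatidylinositol 3-kinase, by 0.25 (standard error 0.09) at E12.5. After removal of that length and GC trend the E11.5 value of Vldlr was 0.08 in place of 0.26. At that stage Gsk3b was at -0.03 in place of 0.17 and Pik3r1 at -0.11 in place of 0.07. The E12.5 values stayed above 0 for Vldlr, at 0.30 in place of 0.38, and for Pik3r1, at 0.165 in place of 0.25. With the block and this removal together Dab1 was called lower at E11.5 (-0.43, edgeR adjusted p = 0.00974). Without E11.5 Mboat7-/- replicate 2, Dab1 (-0.57, adjusted p = 0.00444), Lrp8 (-0.42, adjusted p = 0.00918) and Fyn (-0.28, adjusted p = 0.0456) were called lower, as were 4 members in the same fit. Without replicate 1 none of the 3 was called, with Dab1 at -0.08, Lrp8 at 0.02 and Fyn at -0.14.

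Cxcl12, the chemokine with which the meninges hold Cajal-Retzius cells under the pia, had the smallest p of the lists that concern these cells. It was at 106 and 93.7 CPM in E11.5 Mboat7+/- and at 177 and 147 CPM in Mboat7-/- cortices, both of which were above both controls. The difference was 0.70 on the log2 scale (standard error 0.10, unadjusted edgeR p of 8.44e-05, adjusted p = 0.163) and did not pass the quasi-likelihood test. Cxcl12 was called with the replicate block (edgeR adjusted p = 0.000204), by DESeq2 (adjusted p = 9.54e-07, among 188 genes called) and by edgeR's exact test (adjusted p = 1.15e-05, among 176 genes called), and without either Mboat7-/- cortex (adjusted p = 0.00654 without replicate 1 and 1.19e-05 without replicate 2). It was not called in 6 of the 10 other settings that kept all cortices, with edgeR adjusted p between 0.113 and 0.353. These were RLE and upper-quartile normalization, no filter, 10 counts in every cortex, the legacy quasi-likelihood test and the length and GC trend alone removed. Nor was it called without Mboat7+/- replicate 1 (log2 fold change 0.791) or without Mboat7+/- replicate 2 (0.615). At E12.5 it was at 54.6 and 49.3 CPM against 56.9 and 74.1 CPM, or 0.33 on the log2 scale (standard error 0.13, edgeR adjusted p = 0.954). This value was 0.51 without Mboat7-/- replicate 1 (adjusted p = 0.0123) and 0.13 without Mboat7-/- replicate 2 (adjusted p = 1.0). Its receptor Cxcr4, carried by Cajal-Retzius cells among others, was at 38.4 and 35.9 CPM against 31.2 and 31.0 CPM at E11.5 and at 25.2 and 23.9 CPM against 28.7 and 27.2 CPM at E12.5, lower and then higher without overlap (edgeR adjusted p = 0.325 and 0.954). Mesenchyme genes moved with Cxcl12 at E11.5. The 10 genes of that list summed to 1690 and 1660 CPM in Mboat7+/- and to 1940 and 2110 CPM in Mboat7-/- cortices. Of these, 6 of the 10 were higher at an unadjusted p under 0.05, beside 14.1% of all genes in either direction. The replicate block called 5 of the 10, beside 3.38% of all genes. At E12.5 the list summed to 711 and 551 CPM against 688 and 740 CPM. None of the 10 was at 0, and their part in the level of Cxcl12 was not tested.

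Of 10 further genes of Cajal-Retzius cells, 1 was higher and 1 lower at an unadjusted p under 0.05 at E11.5, and 1 higher and 0 lower at E12.5. That threshold was passed by 14.1% of all genes at E11.5 and 4.23% at E12.5. None of the 10 passed an FDR under 0.05. Ebf1, a paralog of Ebf2 and Ebf3, was the higher gene at both stages, at 9.87 and 9.37 CPM against 11.6 and 17.6 CPM at E11.5 and at 33.6 and 33.4 CPM against 40.3 and 40.4 CPM at E12.5. Over both stages its log2 fold change was 0.39 (standard error 0.12, unadjusted edgeR p of 0.00501, adjusted p = 0.308). Among 20 paralogs and partners of the members, 16 were tested at E11.5 and 14 at E12.5, and none passed an FDR under 0.05. Lhx2, a LIM-homeodomain gene of cortical progenitors, was at 443 and 475 CPM against 331 and 420 CPM at E11.5 (log2 fold change -0.29, standard error 0.10, edgeR adjusted p = 0.263), was called with the replicate block (adjusted p = 0.0226), and overlapped at E12.5. Lhx8, a gene of the ventral telencephalon, was lower without overlap at E11.5 (log2 fold change -0.46, standard error 0.16, edgeR adjusted p = 0.260). Without E11.5 Mboat7-/- replicate 2, Lhx2 (adjusted p = 0.000314) and Lhx8 (adjusted p = 0.0384) were called, while without replicate 1 they were at -0.13 (edgeR adjusted p = 0.478) and -0.31 (adjusted p = 0.497).

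Markers of the places where Cajal-Retzius cells arise held no gene past an FDR under 0.05 between genotypes. With the replicate block 1 of them, Gata2 of the diencephalic list, was called at E11.5, beside 3.38% of all genes. An unadjusted p under 0.05 was found for 14.1% of all genes at E11.5 and 4.23% at E12.5. Of the 12 cortical hem genes, 0 were higher and 1 lower at an unadjusted p under 0.05 at E11.5 and none in either direction at E12.5. The lower gene was Rspo3, which encodes a secreted enhancer of Wnt signalling (log2 fold change -0.31, standard error 0.09, edgeR adjusted p = 0.212), which was called without E11.5 Mboat7-/- replicate 2 (adjusted p = 0.0265). Of the septum and antihem genes, 0 of 11 at E11.5 and 0 of 10 at E12.5 had an unadjusted p under 0.05. The diencephalon and thalamic eminence list had 2 of 15 higher at E11.5 and 2 of 9 lower at E12.5 at that threshold, and its sums overlapped between the genotypes at E11.5, with 458 and 390 CPM against 387 and 455 CPM.

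Lists of markers of other tissue had more genes past the unadjusted threshold at E11.5 than the 1 of 9 members, and none passed an FDR under 0.05. Of all genes tested, 14.1% passed that unadjusted threshold in either direction at E11.5, while 4.23% did so at E12.5. The ventral telencephalon list had 4 of 10 genes lower at an unadjusted p under 0.05 at E11.5, with sums of 541 and 507 CPM in Mboat7+/- and 408 and 501 CPM in Mboat7-/- cortices, and 0 of 10 at E12.5. Cranial ganglion and placode genes summed to 94.5 and 91.2 CPM against 125 and 103 CPM at E11.5, with 3 of 9 higher and 1 lower at that threshold, and to at most 37.2 CPM in every cortex at E12.5. Blood genes, mostly globins, were lower in Mboat7-/- at an unadjusted p under 0.05 in 6 of 7 genes tested at E11.5 and in 7 of 10 at E12.5, with sums of 6950 and 5240 CPM against 3640 and 3880 CPM at E11.5 and of 5340 and 7760 CPM against 5430 and 3830 CPM at E12.5. With the replicate block, 6 blood genes, 2 ganglion and placode genes and 1 ventral gene were called at E11.5, beside 3.38% of all genes. The block called 1 blood gene at E12.5, beside 0.196% of all genes. The part of these tissues in the values of the members was not tested.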

How the data were processed

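The authors dissected cortices at both stages and made directional libraries of poly(A) RNA, and the deposited tables hold raw read counts per gene, 1 column per embryo. HISAT2, Subread, mm10 and GRCm39 are named in the submitters' processing notes without roles, and the strand setting of the counting was not given in the sources used here. Members and gene lists were chosen with earlier results of these data known. Each stage was fitted alone in edgeR 4.0.16 (R 4.3.3) with TMM normalization, filterByExpr (minimum count 10), the quasi-likelihood test and Benjamini-Hochberg adjustment over all genes. Fits over both stages used 15001 shared genes, with stage as a term. CPM used TMM-normalized library sizes. Other settings tried were normalization by RLE or the upper quartile, DESeq2 1.42.0, the exact and the legacy quasi-likelihood test, other filters, the replicate block and leaving out each cortex. The fits were tested on simulated data. The replicate number is also the batch label and was taken to pair the cortices in the fits with the replicate block. The main fits had no block and did not pair them. Deviations of same-numbered cortices had a correlation across genes of 0.0548 (E11.5) and -0.121 (E12.5). Replicates differed by more than sampling noise (chi-square per degree of freedom 7.18 to 14.8). Nothing in the labels says whether embryos shared a litter. Genes outside the members were named by their smallest p within a list or by the role described. Floors cover counting error only.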

Additional observations from a re-analysis of the deposited data

How the results depend on the processing

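Over 189 refits of the members' fold changes, 0 changed direction and 3 brought a member past the threshold. The refits used other normalizations, tests and filters, the replicate block, removal of a length and GC trend and the crossed block described below. DESeq2 gave no adjusted p for 6 members at E11.5, and these were counted as not past the threshold. The paired fit with the replicate block called 0 of the 9 members at either stage, so that it changed no call of a member. With the block and the trend removed, 2 members were called at E11.5. With the replicate numbers crossed between the genotypes at E12.5, an alternative added after seeing the data, 158 of 16326 genes and 1 of the 9 members, Reln, were called. The labelled block called 32 genes. Crossing goes against the batch labels, and same-numbered deviations had a correlation of -0.121 at that stage. The crossed pairs therefore leave less residual variation by their choice, and no conclusion is drawn from this call of Reln. The median of the members at E12.5 was -0.115 with the trend removed and -0.12 with the block as well, and the cause was not tested.

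When cortices were left out singly, the members called numbered from 0 to 4 at E11.5, from 0 to 1 at E12.5, from 0 to 1 in the interaction fit and from 0 to 0 over both stages, and the median of the members lay between -0.387 and -0.024 at E11.5 and between -0.103 and 0.038 at E12.5. In 9 of these 72 refits a member changed direction. The ranges were -0.542 to 0.038 for Reln, -0.175 to 0.157 for Lhx1, -0.099 to 0.247 for Lhx5, -0.934 to 0.176 for Lhx9 and -0.356 to 0.344 for Ebf2 at E11.5, and -0.13 to 0.038 for Lhx9 and -0.19 to 0.051 for Ebf2 at E12.5. A cortex left alone in its genotype was assumed to vary like the others.

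Of the other genes named, values below 0 replaced values above 0 with the trend removed and with the block as well for Gsk3b (-0.025 and -0.024 at E11.5, -0.07 and -0.074 at E12.5) and for Pik3r1 (-0.107 and -0.104 at E11.5). With each cortex left out, Lrp8 lay between -0.419 and 0.019 at E11.5 and between -0.011 and 0.228 at E12.5, and at E12.5 Gsk3b lay between -0.056 and 0.113, Lhx2 between -0.016 and 0.073 and Rspo3 between -0.052 and 0.172.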
